A study of Homo sapiens with 10 samples.

Results

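FOXA1, HOXB13, GATA2, GATA3 and GRHL2 encode transcription factors of the luminal epithelium, and their histone acetylation was followed from the prostate adenocarcinoma cell line C4-2B to C4-2BER. All peaks of the 4 peak lists over each gene body and 100 kb to each side were taken with their position, width and fold enrichment. They were 605 of 537404 peaks, and the genes were 5 of 20033 protein-coding genes. C4-2B grows without testicular androgen, and C4-2BER was derived from it as a neuroendocrine-like line resistant to enzalutamide, an antiandrogen in which it is kept continuously. H3K27ac and H3K18ac, acetyl marks of active promoters and enhancers, were profiled by ChIP-Seq in 2 libraries per mark and line, 8 ChIP libraries beside 1 input library per line. The compared groups differed in the cell line and in the drug at once, so these cannot be told apart, and each line stands for a single derivation.

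Each list was called on merged replicates. A value is therefore 1 number for a pool of libraries, without replicate error, and no test between the lines could be made. The fold enrichment is a ratio to the background of its own list, and the depth of the libraries is unknown. Whether the fold of a broad peak is its mean or its highest point is not given in the sources used here. For H3K27ac there were 68034 peaks in C4-2B, covering 117 Mb, and 72971 in C4-2BER, covering 145 Mb. For H3K18ac the numbers were 198451 and 197948, covering 293 and 321 Mb. All positions are GRCh38, and distances are in kb from the canonical start site, negative upstream.

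Pioneer factors bind their DNA sites in closed chromatin and open it for other factors. In prostate epithelium FOXA1, a forkhead protein, and GATA2 prepare the enhancers of androgen-regulated genes, and HOXB13 is a homeobox factor that gives the tissue its posterior identity. GATA3 belongs to the same zinc finger family as GATA2 and is known from luminal breast and prostate epithelium. GRHL2, a grainyhead factor, keeps epithelial junction genes active. Genes that define a cell identity often lie in wide acetylated domains, in which promoter and neighbouring enhancers merge.

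All 5 promoters carried a peak in all 4 lists, and none passed the limit for a change. Here a promoter reaches from 2000 bp upstream to 500 bp downstream of any annotated start site, its value is the highest fold of a peak touching it, and a change is a peak in 1 line only or a ratio of at least 2. Of all protein-coding promoters with a peak, 4.56% were called increased and 10.8% decreased for H3K27ac, and 2.15% and 5.9% for H3K18ac. The H3K27ac value was lower in C4-2BER at 4 of the 5 promoters and the H3K18ac value at 5 of 5. This was also the case for most genes, as the median log2 ratio of C4-2BER over C4-2B over all promoters was -0.50 for H3K27ac and -0.33 for H3K18ac. Set against these medians, the values of FOXA1, GATA2 and GATA3 were lower for H3K27ac and those of HOXB13 and GRHL2 higher, and for H3K18ac FOXA1, GATA3 and GRHL2 were lower and HOXB13 and GATA2 higher.

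For H3K27ac, the promoter fold of FOXA1 was 29.0 in C4-2B and 15.0 in C4-2BER, a log2 ratio of -0.95. That of HOXB13 was 23.5 and 19.8, a log2 ratio of -0.25. That of GATA2 was 22.6 and 15.5, a log2 ratio of -0.55. FOXA1 thus stood above HOXB13 and GATA2 in C4-2B and below both in C4-2BER. GATA3 was lowest in both lines, with 3.57 and 2.13 and a log2 ratio of -0.75. GRHL2 was the only promoter with a higher value in C4-2BER, 10.8 against 11.8 and a log2 ratio of 0.13. Of 14304 promoters with a peak in both lines, 10.6% had a lower ratio than FOXA1, 24.9% than GATA3, 45.5% than GATA2, 75.0% than HOXB13 and 91.4% than GRHL2. With 1 pooled value per line there is no spread against which neighbours in this order could be set.

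For H3K18ac, FOXA1 again led in C4-2B with 14.0 and had 8.23 in C4-2BER, a log2 ratio of -0.77 that only 7.99% of 16702 promoters fell below. HOXB13 had 8.50 and 7.70, GATA2 8.87 and 7.44, and GRHL2 8.28 and 6.35. GATA3 was lowest with 4.61 and 3.36. Their log2 ratios lay between -0.46 at GATA3 and -0.14 at HOXB13. Among all promoters, the rank of FOXA1 was 346 of 17469 in C4-2B and 1882 of 17061 in C4-2BER. HOXB13 had ranks of 5875 and 2733, although its fold was lower in C4-2BER. The median promoter fold was 7.30 in C4-2B and 5.73 in C4-2BER, so a rank gives a place within its own list and not a change.

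**Figure D1:**
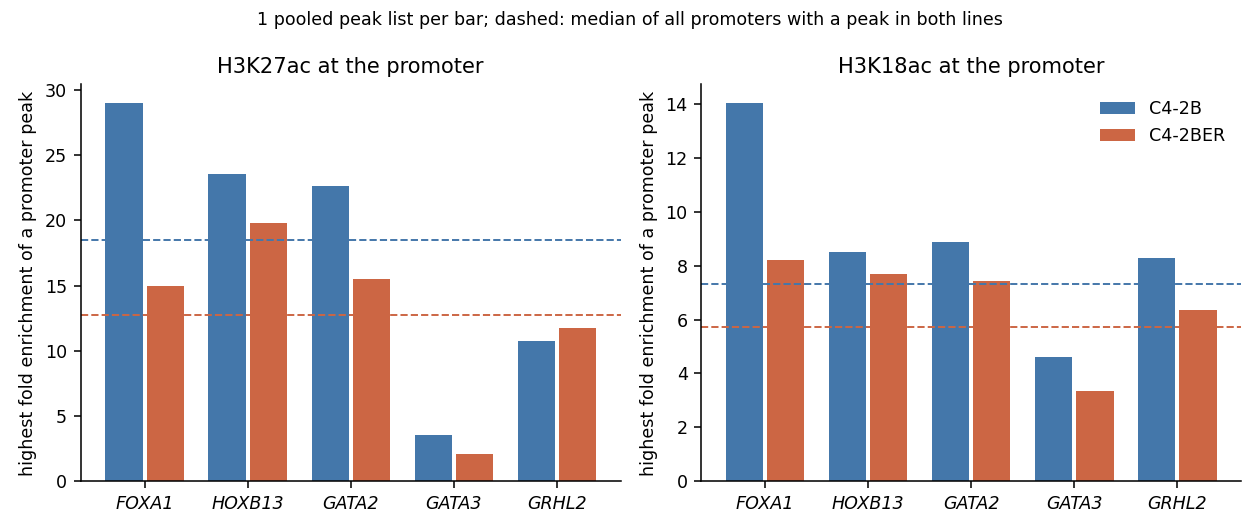
Highest fold enrichment of a promoter peak (y axis, ratio to the list's background) of the 5 genes in C4-2B (blue) and C4-2BER (orange), 1 pooled list per bar, with the median of all promoters that have a peak in both lines as dashed lines. FOXA1 is the highest bar of both marks in C4-2B, GATA3 the lowest in both lines, and GRHL2 H3K27ac is the only value that is higher in C4-2BER.

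The covered length set the genes apart further. Peaks of H3K27ac lay over 32.0 kb of the FOXA1 window in C4-2B and 55.6 kb in C4-2BER, a ratio of 1.74. For GRHL2 it was 99.2 and 148 kb, a ratio of 1.49. HOXB13, with 58.6 and 71.6 kb, and GATA2, with 73.4 and 87.8 kb, had ratios of 1.22 and 1.20, close to the median of 1.23 over 19128 windows of protein-coding genes. GATA3 had 10.1 kb in C4-2B and 1.68 kb in C4-2BER, a ratio of 0.167 that 0.12% of all windows fell below. Of all windows, 84.5% had a lower ratio than FOXA1 and 72.9% than GRHL2. Among windows with a GC content like that of GRHL2 the median ratio was 1.35, and 62.2% lay below GRHL2. The ratios of FOXA1 and GRHL2 were thus above the median window, that of GRHL2 by little among windows of like GC, and that of GATA3 far below it, while HOXB13 and GATA2 had ratios near that of the typical window.

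For H3K18ac, GRHL2 had 101 and 179 kb, a ratio of 1.77, and FOXA1 had 30.8 and 50.3 kb, a ratio of 1.63. HOXB13 had 89.3 and 111 kb, GATA2 143 kb in both lines, and GATA3 48.3 and 38.0 kb, a ratio of 0.788. The median ratio over 19822 windows was 1.04. This ratio varied with base composition. Among 1977 windows with a GC content like that of FOXA1 (38.6%) its median was 1.41, and 63.7% of those windows lay below FOXA1. Among 1993 windows like that of GATA2 (52.4% GC) it was 0.807, and 87.5% lay below GATA2. For H3K27ac the medians of windows with such GC contents were 1.29 and 1.16. The part of base composition in these ratios was not tested.

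**Figure D2:**
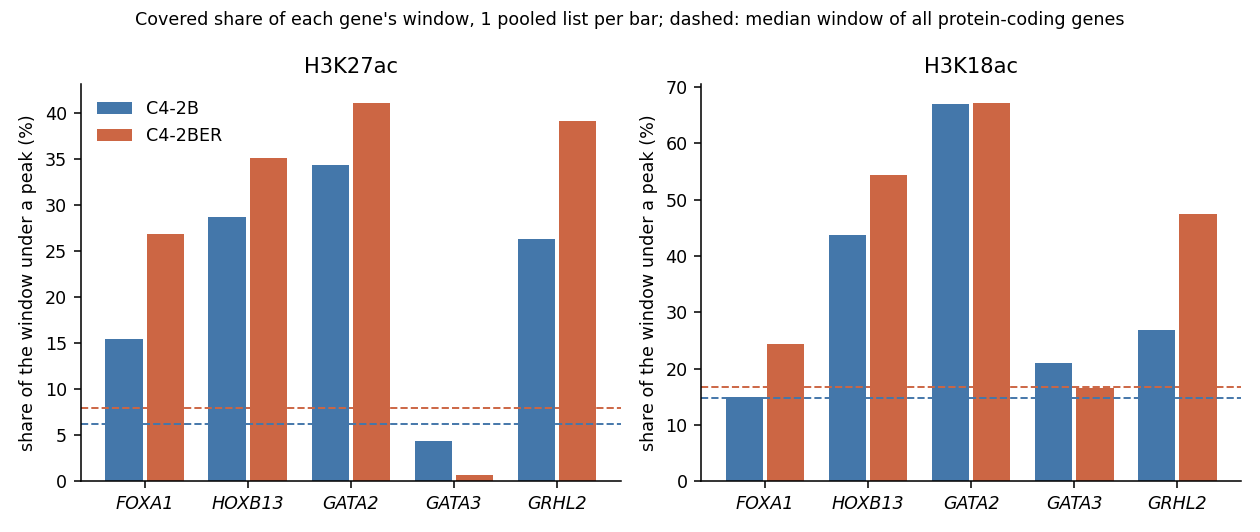
Share of each window under a peak (y axis, percent of the gene body and 100 kb to each side) in C4-2B (blue) and C4-2BER (orange), 1 pooled list per bar, with the median window of all protein-coding genes as dashed lines. For H3K27ac the FOXA1 window goes from 15.5% to 26.9%, GRHL2 from 26.3% to 39.2% and GATA3 from 4.37% to 0.73%.

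Peaks of both lines that overlapped were merged into regions, valued by the length-weighted mean fold and called by the same rule as promoters. The 5 windows held 116 H3K27ac regions, of which 36 were increased (31.0%) and 15 decreased (12.9%). Over all 89877 H3K27ac regions 30.5% were increased and 22.7% decreased. Of 214 H3K18ac regions in the windows, 43 were increased (20.1%) and 30 decreased (14.0%), against 26.2% and 23.5% of all 247646. The share of increased H3K27ac regions was thus near the background and the others were below it. With the 34017 highest-fold peaks of both lists, 10 H3K27ac regions of the windows were increased and 12 decreased. Over the genome this setting gave shares of 20.5% and 20.4%, so the excess of increases over decreases was absent there too. Of the 116 H3K27ac regions, 115 overlapped an H3K18ac region (99.1%, and 94.5% of all H3K27ac regions), whereas 123 of the 214 H3K18ac regions overlapped H3K27ac (57.5%, and 32.1% of all). There were 11 H3K27ac regions increased in both marks, 5 at FOXA1 and 6 at GRHL2, and 4 decreased in both, all at GATA3. These were 9.48% and 3.45% of the H3K27ac regions in the windows, near the 8.15% and 5.01% of all H3K27ac regions.

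By gene, FOXA1 had 10 increased and 1 decreased of 24 H3K27ac regions, HOXB13 5 and 2 of 18, GATA2 4 and 2 of 17, GATA3 0 and 8 of 10, and GRHL2 17 and 2 of 47. The H3K18ac counts were 12 and 1 of 38, 5 and 6 of 32, 2 and 4 of 25, 4 and 17 of 43, and 20 and 2 of 76 in the same order. Most of these calls rested on weak peaks found in 1 line, with a median fold of 2.34 for the 33 H3K27ac regions of C4-2BER alone and 2.63 for the 14 of C4-2B alone. With peaks of at least 4-fold, FOXA1 had 4 increased and 0 decreased H3K27ac regions, HOXB13 3 and 0, and GATA2 0 and 0. GATA3 had 0 and 3, and GRHL2 2 and 4. Weaker peaks were dropped before merging, so a shared region with 1 line under 4 counted as a peak of 1 line. A FOXA1 region with 3.72 in C4-2B and 4.02 in C4-2BER thus counted as increased. The 4 decreased regions of GRHL2 were not called decreased with all peaks, so these counts do not show a reversal there. Of all H3K27ac regions with peaks of at least 4-fold, 19.9% were increased and 19.3% decreased. With the highest-fold peaks of both lists in equal number, GRHL2 had 4 and 4. For H3K18ac, GRHL2 had more increases under both settings, with 5 and 2 beside shares of 19.1% and 24.2% over the genome, and with 18 and 3 beside 29% and 25.6%.

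**Figure D3:**
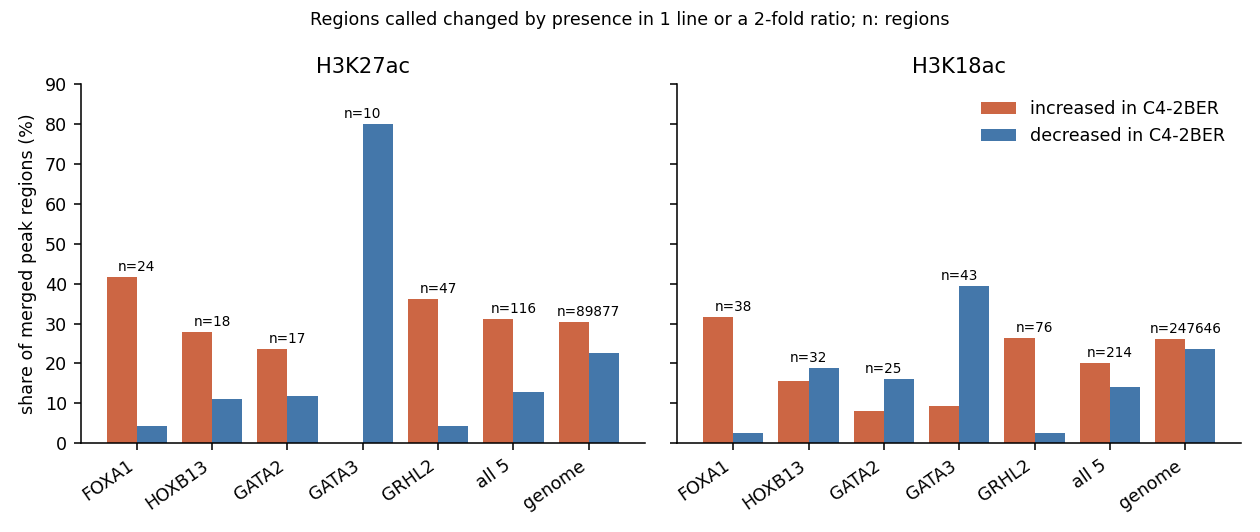
Share of merged peak regions (y axis, percent) called increased (orange) or decreased (blue) in C4-2BER by presence in 1 line or a ratio of at least 2, for each gene's window, the 5 windows together and all regions of the genome, with the number of regions above the bars. GATA3 has 80% of 10 H3K27ac regions decreased, and FOXA1 and GRHL2 have more increased than decreased regions in both marks. With peaks of at least 4-fold GRHL2 H3K27ac has 2 against 4, but there a shared region can count as a peak of 1 line.

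FOXA1 lies on chromosome 14 (37589552 to 37596059, minus strand, ENSG00000129514.8) and has 5 annotated start sites, of which that at 37595249 is canonical. In C4-2B a 17.2 kb H3K27ac peak at chr14:37587549-37604713 spanned the gene with a fold of 29.0, and a weaker peak of 4.00 lay next to it at chr14:37583297-37586577. In C4-2BER a single 21.4 kb peak at chr14:37583290-37604695 covered both at 15.0. Weighted by length, the joined region had 25.0 in C4-2B and 15.0 in C4-2BER, a log2 ratio of -0.73 beside the -0.95 of the promoter value. By width these peaks ranked 248 of 68034 and 239 of 72971, and by fold 1495 and 4050. The domain was of similar extent in both lines and lower in C4-2BER.

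H3K18ac at FOXA1 formed separate peaks. One of 6379 bp over the promoter in C4-2B, at chr14:37594291-37600669, had a fold of 14.0, and its counterpart of 10405 bp in C4-2BER had 8.23. A second peak of 2106 bp inside the gene, at chr14:37591204-37593309, was the highest of the window with 14.8 in C4-2B, and 11.2 in C4-2BER. The start site at 37594262 lay between these peaks and had no H3K18ac peak in either line. With a promoter window that reaches far enough downstream to take in the inner peak, the log2 ratio was -0.40 in place of -0.77.

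The wider cover of FOXA1 lay mostly upstream of it, within TTC6, a gene read in the opposite direction from a start site 380 bp away. In the 100 kb upstream, H3K27ac covered 13.0 kb in C4-2B and 32.0 kb in C4-2BER, and H3K18ac 14.6 and 29.2 kb. Downstream, H3K27ac covered 12.6 and 17.0 kb. The mean fold of the covered bases was 17.7 in C4-2B and 8.92 in C4-2BER, so the length times fold summed over the window was 0.874 times as large in C4-2BER. For H3K18ac the same sum was 1.23 times as large in C4-2BER. The covered H3K27ac length of whole chromosome 14 had a ratio of 1.28. The 14 H3K27ac regions that both lines shared had a median log2 ratio of 0.12, with 8 higher and 6 lower in C4-2BER, the gene's own domain among the lower ones.

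The strongest increased H3K27ac region of FOXA1, at chr14:37639580-37643358 (-48.1 to -44.3 kb), had peaks of 3.45 and 2.86 in C4-2B and 1 peak of 6.89 in C4-2BER, a log2 ratio of 1.16. A region of 3553 bp at chr14:37667741-37671293 had a peak in C4-2BER only, with 4.33, and H3K18ac was found there in C4-2BER only as well, with 3.89. A short C4-2BER peak at chr14:37543135-37543787, in MIPOL1 downstream of FOXA1, had 5.86, and the H3K18ac peak there was at 4.51, likewise in C4-2BER only. Its sequence is not unique, as 5 of 10 consecutive 30-base pieces from its middle occurred elsewhere in the genome, the most frequent 888 times. The single decreased H3K27ac region, at chr14:37501830-37502136, had 2.64 in C4-2B only. For H3K18ac, the highest increased region at chr14:37651524-37652132 had 2.31 and 5.36, and the only decreased one, at chr14:37555385-37556423, had 3.16 in C4-2B.

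The middle 300 bases of the first 2 of these regions are shown because, of the 3 strongest H3K27ac regions called increased near FOXA1, they are those whose middle did not occur elsewhere in the genome. They are on the plus strand, from chr14:37641320-37641619 and chr14:37669368-37669667. Capitals mark matches on either strand to the letters of 4 motifs, none of which contains another. The forkhead letters were TGTTTAC. The GATA letters were AGATAA, and those of HOXB13 were CAATAAA. The grainyhead letters were AACCNGTT, where N is any base.
FOXA1 upstream region called increased in H3K27ac: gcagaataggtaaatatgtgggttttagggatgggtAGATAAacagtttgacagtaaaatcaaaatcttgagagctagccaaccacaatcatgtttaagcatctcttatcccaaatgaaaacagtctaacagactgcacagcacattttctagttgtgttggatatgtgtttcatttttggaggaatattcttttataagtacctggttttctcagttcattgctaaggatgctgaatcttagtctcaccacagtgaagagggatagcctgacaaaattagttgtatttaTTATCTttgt
FOXA1 upstream region called increased in both marks: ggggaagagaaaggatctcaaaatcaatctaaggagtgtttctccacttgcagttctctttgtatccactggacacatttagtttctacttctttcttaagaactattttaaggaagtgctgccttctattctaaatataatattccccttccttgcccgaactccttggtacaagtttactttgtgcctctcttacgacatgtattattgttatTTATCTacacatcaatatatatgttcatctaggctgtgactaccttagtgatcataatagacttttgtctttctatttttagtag
The capitals are the GATA letters, 2 matches in the first sequence and 1 in the second, and the other 3 motifs had none. Of 82497 H3K27ac regions, 11.9% held the GATA letters in their middle 300 bases, 4.94% the forkhead, 4.99% the HOXB13 and 2.16% the grainyhead letters. Over its full 3779 bp the first region held 8 matches to the GATA letters and 2 to the forkhead letters.

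HOXB13, on chromosome 17 (48724763 to 48728750, minus strand, ENSG00000159184.8), has 1 start site and lay inside an even wider domain. Its H3K27ac peak was 19.1 kb long with a fold of 23.5 in C4-2B (chr17:48716447-48735498) and 22.1 kb long with 19.8 in C4-2BER (chr17:48716387-48738452). This domain also holds the starts of PRAC1 and PRAC2, small prostate and rectum genes, which therefore share its promoter values. A second domain upstream, from -34.0 to -13.7 kb and reaching into TTLL6, had 12.5 in C4-2B and 14.3 in C4-2BER. H3K18ac followed this layout, with 8.50 and 7.70 at the promoter and widths of 14.7 and 19.1 kb. The upstream domain was an H3K18ac peak of 3.64 kb with 8.77 beside one of 13.3 kb with 5.32 in C4-2B, and a single peak of 21.8 kb with 6.89 in C4-2BER, the widest of its window. Both domains were present in both lines, and no region of the gene's own 2 domains was called changed in H3K27ac.

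The highest H3K18ac peak of the C4-2B window, 11.8 at chr17:48624740-48627846, lay at the far edge over HOXB9, whose H3K27ac promoter fold was 18.4 and 14.1. The largest H3K27ac change was a region of 1060 bp at chr17:48671439-48672498 (56.3 to 57.3 kb downstream), in the lncRNA gene LINC02086, with 2.73 in C4-2B and 7.41 in C4-2BER, a log2 ratio of 1.44. H3K18ac there was not called changed. The other 4 increased regions were C4-2BER peaks alone, the next 2 with 2.51 and 2.18, and the 2 decreased ones had 3.03 and 2.49 in C4-2B. The 5 increased and 6 decreased H3K18ac regions were all peaks of 1 line, with at most 2.65 and 2.63. The middle of the 7.41-fold peak is shown as the sequence under the largest change of this window, from chr17:48671821-48672120 on the plus strand. It held none of the 4 motifs, and no 30-base piece of it occurred elsewhere.
HOXB13 downstream region: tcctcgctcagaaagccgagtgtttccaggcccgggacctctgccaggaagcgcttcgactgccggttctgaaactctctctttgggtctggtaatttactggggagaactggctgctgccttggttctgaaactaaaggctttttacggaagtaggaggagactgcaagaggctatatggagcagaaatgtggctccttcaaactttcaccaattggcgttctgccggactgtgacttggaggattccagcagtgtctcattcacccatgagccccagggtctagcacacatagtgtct

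GATA2, on chromosome 3 (128479427 to 128493201, minus strand, ENSG00000179348.13), has 10 annotated start sites, all inside 1 peak in each of the 4 lists. The H3K27ac peak was 20.1 kb long with 22.6 in C4-2B (chr3:128479200-128499325) and 20.3 kb with 15.5 in C4-2BER (chr3:128479153-128499415). The H3K18ac peak was 20.3 kb long in both lines with 8.87 and 7.44. Its ends thus moved by little between the lines or the marks, and the antisense gene GATA2-AS1 shares it. A second acetylated stretch lay downstream over EEFSEC, a gene of selenoprotein synthesis. There, H3K27ac formed 4 C4-2B peaks of up to 13.6 that were a single 31.0 kb peak of 10.2 in C4-2BER (chr3:128375153-128406149), and the mean folds were 10.3 and 10.2. In H3K18ac, the same stretch was a 40.2 kb peak of 5.06 beside one of 24.0 kb with 6.50 in C4-2B, and 1 peak of 96.2 kb in C4-2BER with 5.34 (width rank 5 of its list), which runs past the window's edge. Weighted by length, this region had 5.42 in C4-2B and 5.34 in C4-2BER, a log2 ratio of -0.02.

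All H3K27ac changes of the GATA2 window were weak. The 3 highest increased regions had 2.43, 2.36 and 2.18 in C4-2BER alone, and the 2 decreased ones 2.57 and 2.11 in C4-2B alone. The 2.43-fold peak lies at the promoter of DNAJB8, a testis chaperone gene, which was called increased, and the 2.11-fold peak at that of DNAJB8-AS1, which was called decreased. With peaks of at least 4-fold no region of the window was called changed in either mark. The 250 bases before the canonical start are shown because all 4 lists place the gene's highest peak over them. They come from the RefSeq promoter table (GRCh38.p14), which matched 3 of the 5 genes, and lie at chr3:128493202-128493451, written along the minus strand.
GATA2 promoter: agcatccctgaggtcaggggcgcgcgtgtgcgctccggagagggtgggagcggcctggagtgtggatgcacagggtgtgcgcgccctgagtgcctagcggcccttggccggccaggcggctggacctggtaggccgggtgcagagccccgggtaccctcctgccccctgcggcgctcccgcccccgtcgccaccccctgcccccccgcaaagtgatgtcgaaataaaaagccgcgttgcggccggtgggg
This stretch is 72.8% GC and held none of the 4 motifs. Of 35116 RefSeq promoters of the same length, 9.17% held the GATA letters, 2.98% the forkhead, 3.66% the HOXB13 and 1.49% the grainyhead letters.

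GATA3, on chromosome 10 (8045378 to 8075198, plus strand, ENSG00000107485.18), had little H3K27ac in either line. C4-2B had 10 peaks in its window, between 2.09 and 7.58, and C4-2BER 3, of 3.59, 3.50 and 2.13. At the canonical start (8054688) the C4-2B peak was 1441 bp long with 3.57 and covered the start itself. The C4-2BER peak of 861 bp and 2.13 ended before it, at -0.11 kb, and was among the weakest of its list, where 4.82% of peaks had a lower fold. Downstream of the gene C4-2B had 3 H3K27ac peaks and C4-2BER 0. Whole chromosome 10 had a covered ratio of 1.29, and 0% of the 709 windows on it had a lower ratio than GATA3.

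The highest H3K27ac peak of the window, in TAF3 at chr10:7973742-7974363, had 7.58 in C4-2B and 3.50 in C4-2BER, a log2 ratio of -1.12. Its middle was not unique, with 4 of 10 pieces of 30 bases found elsewhere, and H3K18ac there was not called changed. The widest, 2915 bp at chr10:8012062-8014976, had 4.55 in C4-2B alone, and an H3K18ac region over it (chr10:8013644-8015058) had 4.58 and 2.26, a log2 ratio of -1.02. A second H3K18ac region at its upstream edge (chr10:8011290-8012727) was not called changed, with 3.53 and 3.25. The next, at chr10:7951246-7951667, had 4.21 in C4-2B alone. The next highest H3K18ac decreases, both downstream, had 4.12 and 4.01 in C4-2B alone. H3K18ac increases were 4 weak C4-2BER peaks of at most 2.48.

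H3K18ac was spread more widely than H3K27ac over GATA3, with 43 regions against 10, of which 11 overlapped H3K27ac. At the first annotated start (8045378), where no H3K27ac was found, it had 3.69 in C4-2B and 2.66 in C4-2BER. Its widest C4-2B peak, 4698 bp at chr10:8047525-8052222 in the gene, had 3.41, with 3.11 in C4-2BER. The start at 8058399 had an H3K18ac peak of 2.59 in C4-2B only. In the gene body H3K18ac covered 14.7 and 9.69 kb, downstream 10.7 and 1.65 kb, but upstream 22.9 and 26.7 kb. The smaller H3K18ac cover of C4-2BER thus lay in the gene and downstream of it, not upstream.

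For GATA3, the 250 bases before its canonical start (RefSeq, chr10:8054438-8054687, plus strand) are shown beside the middle of the widest peak that C4-2B alone had (chr10:8013370-8013669, plus strand), to set the weak promoter next to the distal site.
GATA3 promoter: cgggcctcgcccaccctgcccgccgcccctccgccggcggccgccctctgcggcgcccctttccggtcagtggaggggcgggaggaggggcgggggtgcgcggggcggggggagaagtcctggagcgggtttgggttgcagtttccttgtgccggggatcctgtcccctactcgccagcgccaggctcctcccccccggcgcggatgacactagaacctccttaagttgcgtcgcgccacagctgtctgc
GATA3 upstream region: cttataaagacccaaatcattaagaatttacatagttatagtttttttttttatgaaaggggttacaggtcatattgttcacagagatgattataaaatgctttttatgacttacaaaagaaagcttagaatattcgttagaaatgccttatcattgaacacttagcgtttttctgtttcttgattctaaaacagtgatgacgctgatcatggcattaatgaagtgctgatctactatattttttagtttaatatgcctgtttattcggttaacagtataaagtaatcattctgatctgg
The promoter is 73.6% GC and the distal stretch 29.3% GC. Neither held any of the 4 motifs, while the full 2915 bp of the distal region held 6 matches to the GATA letters and 2 to the forkhead letters.

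GRHL2, on chromosome 8 (101492439 to 101669726, plus strand, ENSG00000083307.12), is the longest of the 5 genes, and its body was covered 42.2% by H3K27ac peaks in C4-2B and 55.4% in C4-2BER. In C4-2B a 29.8 kb H3K27ac peak ran from the promoter into the first intron with 10.8 (width rank 53 of its list). In C4-2BER the same stretch was 2 peaks, 20.3 kb with 11.8 and 9.73 kb with 6.45. Averaged by length, the stretch had 10.8 and 10.0, a log2 ratio of -0.10, which is opposite in sign to the promoter value of 0.13. The H3K18ac promoter peak was 4570 bp with 8.28 in C4-2B and 14.2 kb with 6.35 in C4-2BER.

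The highest H3K27ac peak of the window was not at the promoter but at -57.5 to -52.4 kb, with 11.9 in C4-2B and 14.9 in C4-2BER. A domain in the gene body, 78.8 to 94.4 kb from the start, had 8.99 and 11.0, and another at 106 to 121 kb had 5.78 and 6.13. The highest H3K18ac peak of C4-2BER, 7.16, lay in the body as well, at 92.1 to 94.4 kb. Near a late alternative start (101636770) H3K27ac was 6.85 and 9.02 and H3K18ac 4.31 and 5.99. At these sites C4-2BER had the higher value, but none reached the 2-fold limit. At another late start (101632226) H3K27ac was 2.54 and 4.55, also under the limit. H3K18ac had a peak of 2.54 there in C4-2BER only, which was called increased.

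The regions called changed at GRHL2 were mostly weak peaks of C4-2BER. The 3 highest increases of H3K27ac were 3.28 to 6.90 at 232 to 234 kb, 3.79 in C4-2BER alone over 4975 bp at 208 to 213 kb, and 3.54 alone in intron 7 at 103 to 104 kb. The first 2 lie past the end of GRHL2, within NCALD, which encodes a neuronal calcium sensor. Downstream of GRHL2 H3K27ac covered 0.715 kb in C4-2B and 11.7 kb in C4-2BER, and H3K18ac 10.6 and 27.5 kb. The 3 highest H3K18ac increases, 3.32, 3.14 and 3.10, were in NCALD too. Decreased regions had at most 3.35 in H3K27ac and 2.35 in H3K18ac. The NCALD promoter was 4.95 and 7.93 for H3K27ac but 7.12 and 5.36 for H3K18ac, both under the limit. Chromosome 8 as a whole had covered ratios of 1.21 and 1.19, below those of the GRHL2 window.

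**Figure D4:**
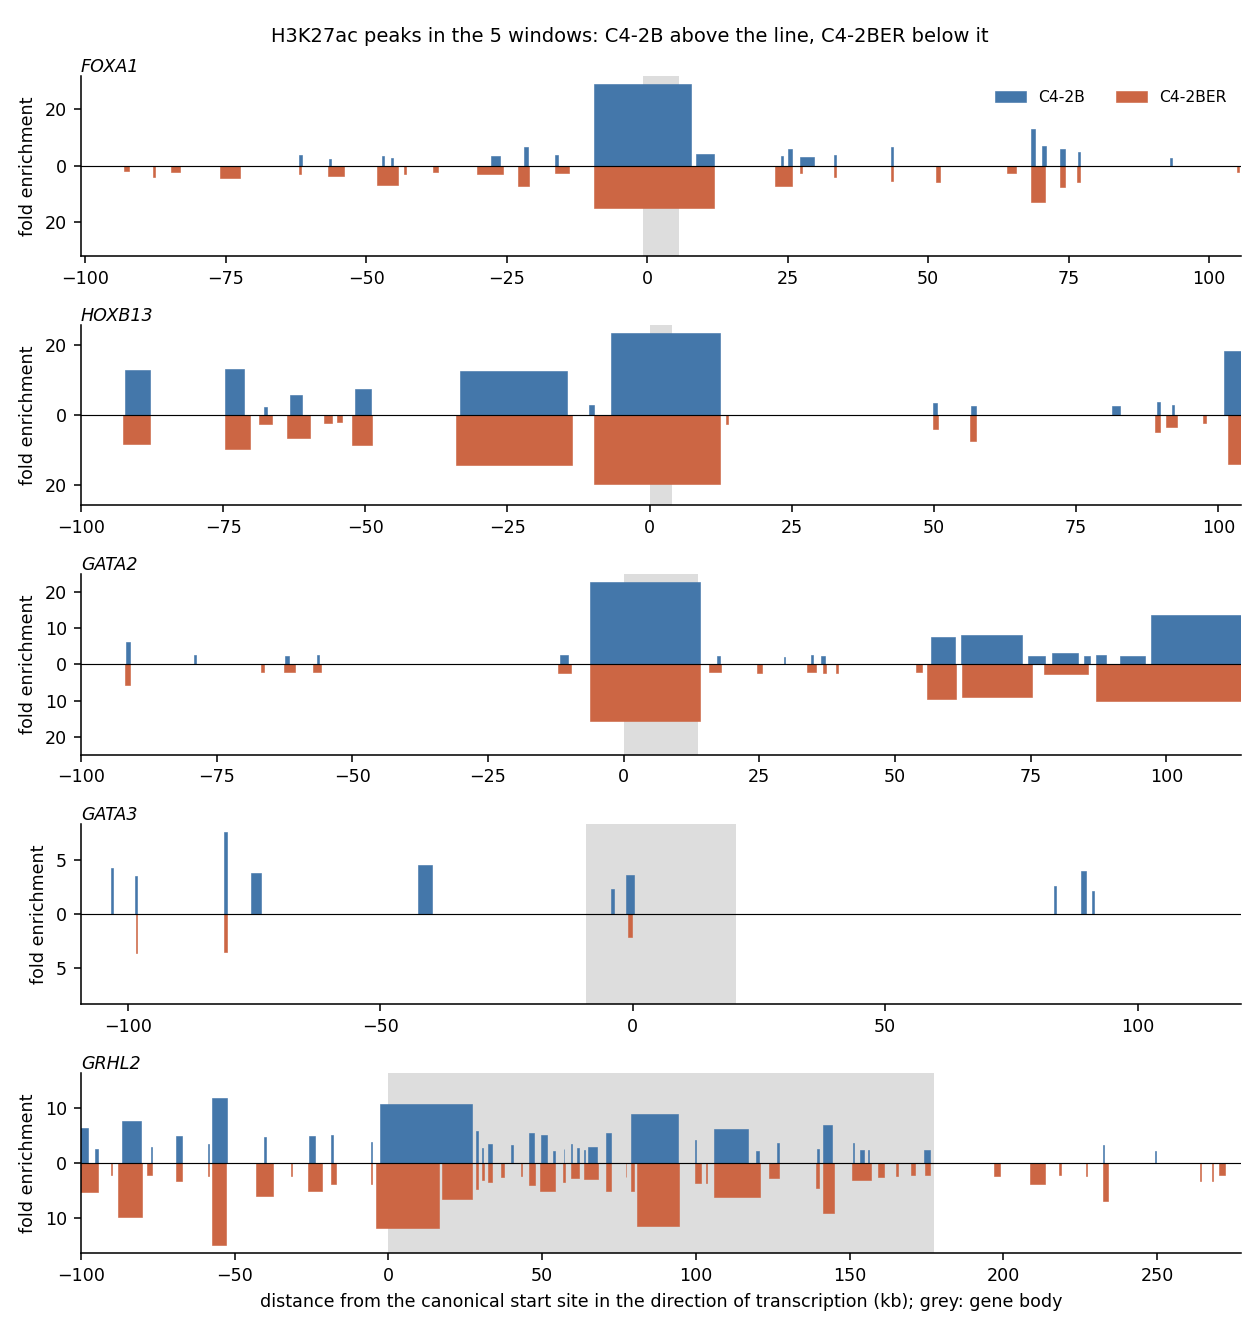
H3K27ac peaks in the 5 windows, by distance from the canonical start in the direction of transcription (x axis, kb) and fold enrichment (y axis), with C4-2B above and C4-2BER below the line and the gene body in grey. Wide domains over FOXA1, HOXB13 and GATA2 are present in both lines, the FOXA1 window has more peaks upstream in C4-2BER, and the GATA3 window goes from 10 peaks to 3.

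**Figure D5:**
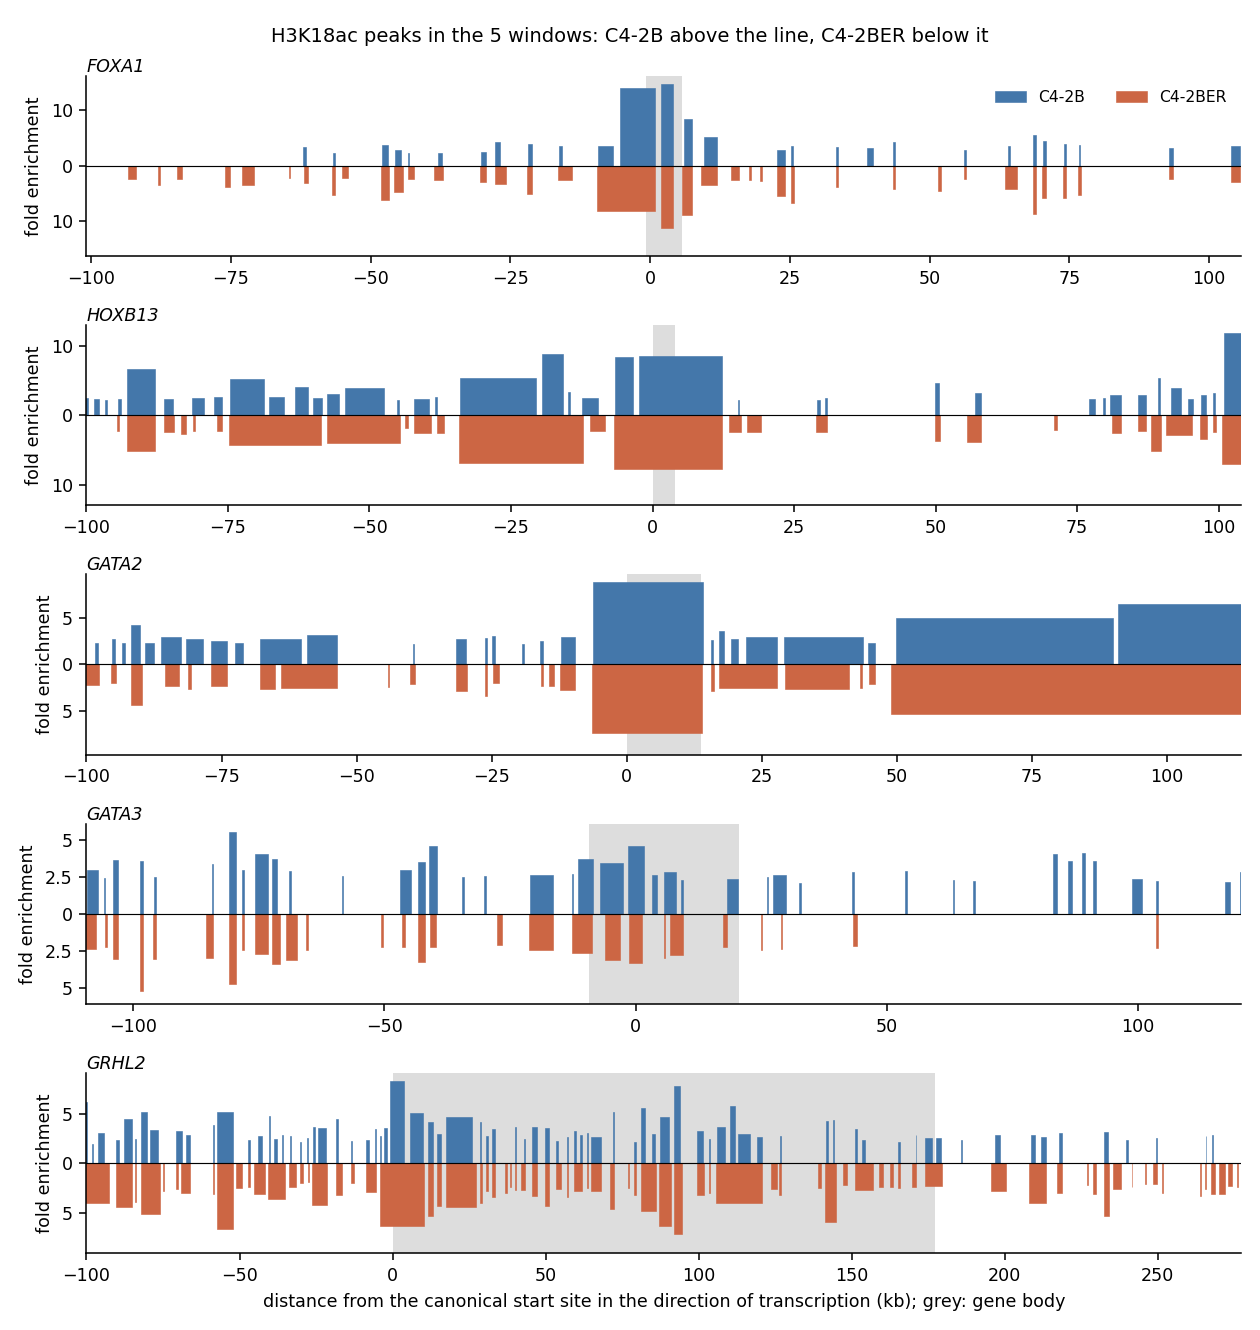
H3K18ac peaks in the same windows and layout (x axis, kb from the canonical start, y axis, fold enrichment). GATA2 is flanked downstream by H3K18ac over 87.1 of 100 kb in C4-2B and 89.8 kb in C4-2BER, and the GATA3 window has 41 peaks in C4-2B and 28 in C4-2BER.

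Genes whose start lies in a window mostly had the same promoter calls as the 5 factors. TTC6 had the values of FOXA1, whose promoter peak it shares, and MIPOL1 had 15.0 and 9.92 for H3K27ac. In the HOXB cluster, HOXB9 and its antisense gene HOXB-AS4 had 18.4 and 14.1, and HOXB7 15.2 and 11.3. TTLL6 had 13.0 and 8.28. LINC02086 was called decreased, with 2.49 in C4-2B only, while LINC03057 had 3.77 and 4.73. Next to GATA2, LINC01565 had no H3K27ac peak at its promoter in either line. At GATA3, GATA3-AS1 shared the values of GATA3. The lncRNA ENSG00000232638 in that window was called decreased in H3K27ac, with 2.34 in C4-2B only. The lncRNA LINC02845, at the far end of the GRHL2 window, was the only one called increased in H3K18ac, with 1.93 and 4.04, and had 6.44 and 5.25 for H3K27ac.

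The genes most like each factor were sought over the 4 log2 promoter folds, by Euclidean distance among 14241 protein-coding genes with a peak in all 4 lists. TTC6, PRAC1 and PRAC2 came first at distance 0, as they share a promoter peak with FOXA1 or HOXB13. Beyond them DUSP16 (0.096) and JAG1 (0.12) were nearest to FOXA1, and ZNF121 (0.087) to HOXB13. RPS23 (0.029), TXNDC11 (0.056) and SLC35B4 (0.06) were nearest to GATA2. SLIT2 (0.088), ENSG00000268655 (0.16) and NOS2 (0.17) were nearest to GATA3, and SEL1L2 and MACROD2 (both 0.13) and STOX2 (0.14) to GRHL2. Such likeness concerns the promoter folds alone.

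Paralogs of the factors gave 0 increased and 0 decreased H3K27ac promoters among 8 of 11 with a peak, with a median log2 ratio of -0.09. GRHL1, a second grainyhead factor, had 25.7 and 17.7, and HOXC13 25.7 and 14.1. GATA6, which shares its DNA motif with GATA2 and GATA3, had 20.2 and 20.7, and HOXA13 14.9 and 13.3. FOXA2, GATA1 and GATA4 had no H3K27ac promoter peak in either line. GATA1, the erythroid member, was the 1 paralog called changed in H3K18ac, with 2.33 in C4-2B only.

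Of 9 factors that act with the 5 in luminal cells, 1 was called decreased and 0 increased in H3K27ac. The shares over all promoters were 10.8% and 4.56%. The decreased one was KLF5, a Krüppel-like factor of epithelial cells, with 15.9 and 7.23. FOXP1, a forkhead factor, had 29.3 and 17.7 and SPDEF, an ETS factor, 21.2 and 16.7. XBP1 had 20.5 and 15.2, and none of these 3 was called changed. The ETS factor genes EHF, with 11.6 and 14.1, and ELF3, with 11.6 and 12.4, and the GATA-type gene TRPS1, with 10.1 and 11.8, were higher in C4-2BER, also under the limit. The 15 luminal epithelial genes had 1 H3K27ac increase, KRT19 with 2.36 in C4-2BER only, no decrease, and a median log2 ratio of -0.27. OVOL2 had 30.4 and 18.8, the adhesion gene EPCAM 29.3 and 20.1, the splicing factor gene ESRP1 28.5 and 23.7, and the tight junction gene CLDN4 21.4 and 17.1. Among 6 androgen-regulated genes none was called changed, with a median of -0.56. FKBP5 had 25.2 and 13.3, TMPRSS2 21.5 and 20.0, and KLK2 and KLK3, which share a promoter peak, 20.3 and 13.8. In H3K18ac none of the epithelial or androgen-regulated genes was called changed. Beside the median of -0.50 over all H3K27ac promoters, the median of the epithelial genes lay above it and that of the androgen-regulated genes below, with single genes of both lists on either side.

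The labelled identity of the lines was checked on marker promoters. The luminal markers KLK3, KRT8 and KRT18 had H3K27ac peaks in both lines. KLK3, which encodes prostate-specific antigen, had 20.3 in C4-2B and 13.8 in C4-2BER, the keratin gene KRT8 19.0 and 12.1, and its partner KRT18 13.7 and 12.1. Of the neuroendocrine markers, ENO2, neuron-specific enolase, was called increased from 4.00 to 14.3, and SYP, synaptophysin, had 8.16 and 5.67. The defining markers CHGA, INSM1, NCAM1, NEUROD1, SRRM4 and FOXA2 had no H3K27ac promoter peak in either line, and NEUROD1 and SRRM4 were called decreased in H3K18ac, with 2.43 and 2.44 in C4-2B only.

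Markers of other cells were checked as well. Of 3 fibroblast markers COL1A1 had 10.7 and 6.86 for H3K27ac, COL1A2 and DCN had none, and DCN had an H3K18ac peak of 2.68 in C4-2BER only. Of 2 endothelial markers CDH5 had 11.7 and 6.02 and PECAM1 none. COL1A1 and CDH5 thus had H3K27ac above that of GATA3 in both lines. The leukocyte markers PTPRC and CD3E had no peak in any list.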

How the data were processed

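H3K27ac and H3K18ac ChIP-Seq peak lists of C4-2B and C4-2BER cells were used as the authors deposited them, 1 per mark and line. The chromatin was fixed with a protein crosslinker before formaldehyde. The authors aligned reads to GRCh38 with bowtie2 (2.2.3 in the submitters' processing notes), removed blacklisted regions, poor alignments and duplicates, merged the replicates and called broad peaks with macs2. Its version and whether the inputs served as control are not given in the sources used here. In the deposited lists each peak has a fold enrichment, a ratio over background, and a −log10 q-value, of which the lowest was 1.00. Merging hides replicate differences, and a shallower list loses weak peaks first.

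Positions were compared with GENCODE release 44 and the GRCh38 sequence, and 0 peaks lay past a chromosome's end. Genes named were the 5 factors, genes starting in their windows, list genes with a promoter change and up to 4 more per list with the highest C4-2B H3K27ac fold. The rule also took, per window and mark, the widest and highest peaks and the 3 strongest changes each way, and the 3 nearest genes of each factor. Some genes of these lists, and 1 motif, are not reported here. Members and lists were chosen with earlier results of these data known. Merging, calling, coverage and promoter values were tested on simulated peaks. Python 3.11.15, numpy 2.4.6, pandas 2.3.3 and matplotlib 3.10.9 were used.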

Additional observations from a re-analysis of the deposited data

How the results depend on the processing

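No paired analysis was possible because each list was called on merged replicates, and no replicate could be left out. The 50 promoter log2 ratios under other windows, start sites, averages or centring kept their direction and their side of the 2-fold limit. Most of them were identical to the main value, because the same peak gave it, so those settings could not have changed it. Centring used the medians of shared regions, -0.17 for H3K27ac and -0.12 for H3K18ac. Against the promoter medians of -0.50 and -0.33, HOXB13 in both marks and GATA2 in H3K18ac would change sign. The length-weighted fold of the whole GRHL2 promoter domain, a region and not a promoter value, had the opposite sign for H3K27ac (-0.10). The counts of changed regions moved under several settings. Beside 36 increased and 15 decreased H3K27ac regions, a window of 50 kb gave 20 and 5, and one of 200 kb gave 27 decreased. Peaks of at least 4-fold gave 9 and 7, peaks with a −log10 q of at least 5 gave 18 increased, and the same number of top peaks in both lists gave 10 increased and 12 decreased, so that decreases outnumbered increases. Sharing only where 50% of a peak is covered gave 61 and 49. Beside 43 increased and 30 decreased H3K18ac regions these settings gave 22 and 14 (50 kb), 75 and 52 (200 kb), 15 and 10 (4-fold), 28 and 16 (q), and 85 and 81 (shared cover). The 4-fold, q and top-peak limits were applied to each list before merging. A shared region or promoter with 1 line under the limit thus became a peak of 1 line. Calls under these limits can therefore include sites with a ratio under 2. Beyond this and the number of peaks and bases each setting admits, the causes were not tested. Beside 0 decreased promoters, GATA3 was 1 decreased H3K27ac promoter with the q limit and with the same number of top peaks, and 1 decreased H3K18ac promoter with the 4-fold limit. That H3K18ac call arose because the limit kept the C4-2B value of 4.61 and dropped the C4-2BER value of 3.36. A ratio of 1.5 gave 2 decreased H3K27ac promoters (FOXA1 and GATA3) and 1 of H3K18ac (FOXA1). The covered ratio of GATA3 for H3K27ac was 0 with the 4-fold limit and 0.0942 with the q limit, and for H3K18ac 0.191 with the 4-fold limit. The ratio of 0 was fixed by the limit, as the highest H3K27ac peak of C4-2BER in that window had 3.59. The covered ratio of GATA2 for H3K18ac was 0.937 with the q limit. The ratios of FOXA1, HOXB13 and GRHL2 stayed above 1 under all window sizes and peak limits tried, in both marks. The depth is unknown, so a site without a peak may carry the mark below the threshold.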

Other observations

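Letters of the 4 motifs were also counted over the whole length of the H3K27ac regions, 397 kb in the 5 windows. The GATA letters occurred 0.596 times per kb there and 0.424 times over all H3K27ac regions, the forkhead letters 0.191 and 0.13 times, and the grainyhead letters 0.0805 and 0.0664 times. The HOXB13 letters occurred 0.204 and 0.168 times. By window, the GATA letters were densest at GATA3 (0.789 per kb), FOXA1 (0.751) and GRHL2 (0.726) and least dense at GATA2 (0.335). The forkhead letters were densest at GATA3 (0.296, 3 matches) and GRHL2 (0.246, 39 matches). The windows differ in base composition, from 38.6% GC at FOXA1 to 52.4% at GATA2, and its part in these densities was not tested.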
